A study of Homo sapiens with 3 samples.

Results

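The genes described here encode 10 enzymes of the methionine cycle, of transsulfuration and of glutathione synthesis and use: MAT2A, AHCY, MTR, CBS, CTH, GCLC, GCLM, GSS, GSR and GPX1. They were chosen by gene symbol, and all 10 were present among the 27574 genes of the count table. Their read counts came from RNA sequencing of 3 H82R libraries, called replicates 1, 2 and 3, whose totals were 25013265, 42610181 and 23868201 counts. H82 is a long-established line of human small cell lung cancer, the labels do not say what the R in H82R stands for, and every library is labelled as treated with etoposide, a topoisomerase II poison, and cisplatin, which forms DNA adducts. No untreated or parental cells are among the labelled samples, so the values are levels in these cells and their spread between libraries, not an effect of the drugs, and the labels give neither dose nor time. Separate cultures are not mentioned in the labels, and the p-values below therefore cover only the spread between these libraries, which may be technical.

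The methionine cycle turns methionine into S-adenosylmethionine, the methyl donor of the cell, and recovers methionine from the homocysteine that remains after methyl transfer. Transsulfuration takes homocysteine out of that cycle and makes cysteine from it. Cysteine is joined to glutamate and then to glycine to give glutathione, which reduces peroxides and, as background, also binds platinum drugs in cells.

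All 10 genes were detected, which here means at least 10 counts in every library, as were 14612 of the 27574 genes. Levels are given as CPM, the usual depth-scaled read count, after TMM scaling of the library totals. The median detected gene stood at 25.2 CPM. Whether a gene lay above or below the median detected gene of its own library was tested with limma (two-sided one-sample test of log2 CPM, Benjamini-Hochberg adjustment over all detected genes, threshold 0.05). By this test 9 of the 10 were called above the median gene and CBS below it, whereas 45.9% of all detected genes were called above and 46.1% below. The call of CBS turned to above when the counts of CBSL, an annotated second copy described below, were added. The median distance of the 10 genes from the median gene was 2.09 on the log2 scale, beside -0.003 over all detected genes.

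**Figure D1:**
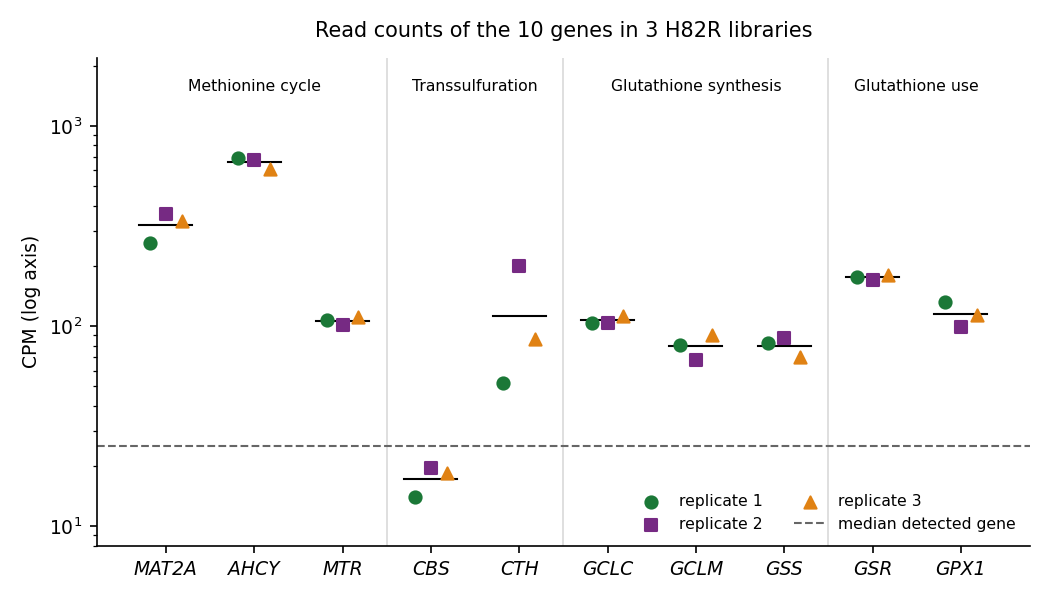
CPM of each of the 10 genes (log axis) in replicates 1 (circles), 2 (squares) and 3 (triangles), with the mean of each gene as a black bar and the median detected gene (25.2 CPM) as a dashed line. AHCY and MAT2A stood highest, CBS was the only one of the 10 under the dashed line, and the 3 CTH points lay farthest apart.

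AHCY and MAT2A, of the methionine cycle, had the highest CPM of the set. AHCY, which hydrolyses S-adenosylhomocysteine to homocysteine, had 695, 680.5 and 609 CPM in replicates 1, 2 and 3. Its level was higher than that of 99.1% of detected genes, with a log2 distance of 4.71 ± 0.07 (SE, n = 3; limma adjusted p = 1.43e-09). MAT2A, the catalytic subunit of the S-adenosylmethionine synthetase found outside the liver, had 261, 363 and 337 CPM and a log2 distance of 3.66 ± 0.10 (SE; limma adjusted p = 9.99e-09). Replicate 1 was the lowest for MAT2A and the highest for AHCY, so AHCY counts were 2.66 times those of MAT2A in replicate 1, 1.88 times in replicate 2 and 1.81 times in replicate 3. In the reference annotation 12.4% of the exon bases of MAT2A also lie in the antisense gene GGCX, and with no strand setting named for the counting, reads from there cannot be told apart. On the same strand, 3.57% of the exon bases of AHCY and 6.12% of those of GCLC also lie in another annotated gene.

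MTR, the cobalamin-dependent methionine synthase that remethylates homocysteine, had 108, 101 and 111 CPM, so its 3 libraries lay close together. Its log2 distance from the median gene was 2.08 ± 0.07 (SE; limma adjusted p = 2.57e-08). MTRR, the reductase that reactivates methionine synthase, had 34.2, 32.4 and 38.1 CPM. MTR counts were 3.16, 3.12 and 2.91 times those of MTRR, and per kb of exon the ratio was 1.80, 1.78 and 1.66. That ratio depends on the length used. The exons of MTR add up to 11374 bases and those of MTRR to 6498, but their longest transcripts have 10529 and 3274 bases. On the longest transcript MTR was no longer the higher in any library. In the annotation 6.23% of the exon bases of MTRR are shared with antisense genes.

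Liver forms of these enzymes were low or not detected. MAT2B, the regulatory partner of MAT2A, had 60.3, 60.7 and 61.5 CPM, and MAT2A counts were 4.33, 5.98 and 5.48 times as many. MAT1A, the liver form of the synthetase, was detected but low, at 1.93, 1.66 and 1.17 CPM. BHMT, which remethylates homocysteine with betaine in the liver, had 1, 0 and 2 counts and BHMT2 had 1, 2 and 0, where a count of 0 allows up to 0.121, 0.0702 and 0.125 CPM in replicates 1, 2 and 3. These 3 liver genes were named after their values were seen. AHCYL1, an AHCY-like protein that regulates inositol trisphosphate receptors, had 441, 455 and 394 CPM. AHCY counts were 1.57, 1.5 and 1.55 times those of AHCYL1.

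The transsulfuration genes differed from each other. CTH, cystathionine gamma-lyase, which releases cysteine from cystathionine, had 1293, 8569 and 2069 counts. These correspond to 52.1, 200.5 and 86.3 CPM, so replicate 2 stood far above the others and replicate 1 was lowest. The highest library exceeded the lowest by 3.85 times. CTH lay above the median gene by 1.94 ± 0.30 on the log2 scale (SE, n = 3; limma adjusted p = 3.12e-04), and its mean of 113 ± 77.7 CPM (SD) became 69.2 CPM without replicate 2, a replicate whose depth was also the largest. Against the upper quartile of detected genes CTH was not distinguished (adjusted p = 0.108, from 1.13e-12 to 0.108 over its alternatives). The gene lies on chromosome 1 from 70411218 to 70439851 on GRCh38, and none of the 100-base stretches of its longest coding transcript occurs in a transcript of another gene in the annotation.

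The spread of CTH was unusual among detected genes. A ratio of highest to lowest library of at least 3.85 was found in 59 of 14612 detected genes, or 0.404%. Among the 3505 detected genes whose mean CPM lay within 2-fold of that of CTH, 2 had such a ratio, CTH itself and SLC7A11. SLC7A11 is the cystine importer that brings in the other main source of cysteine, and it had 53.5, 161 and 232 CPM. SLC7A11 was named after its values were seen, and 8.97% of its exon bases also lie in an antisense gene. Replicate 1 was lowest for both genes, but the highest library was replicate 2 for CTH and replicate 3 for SLC7A11. The ratio for CTH rested on replicate 2: without that library it was 1.66, which 830 detected genes (5.68%) reached. Without replicate 1 it was 2.32, reached by 289 genes (1.98%), and without replicate 3 it stayed at 3.85. For SLC7A11 the ratio was 1.44 without replicate 1. Whether depth plays a part in the spread was not tested.

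**Figure D2:**
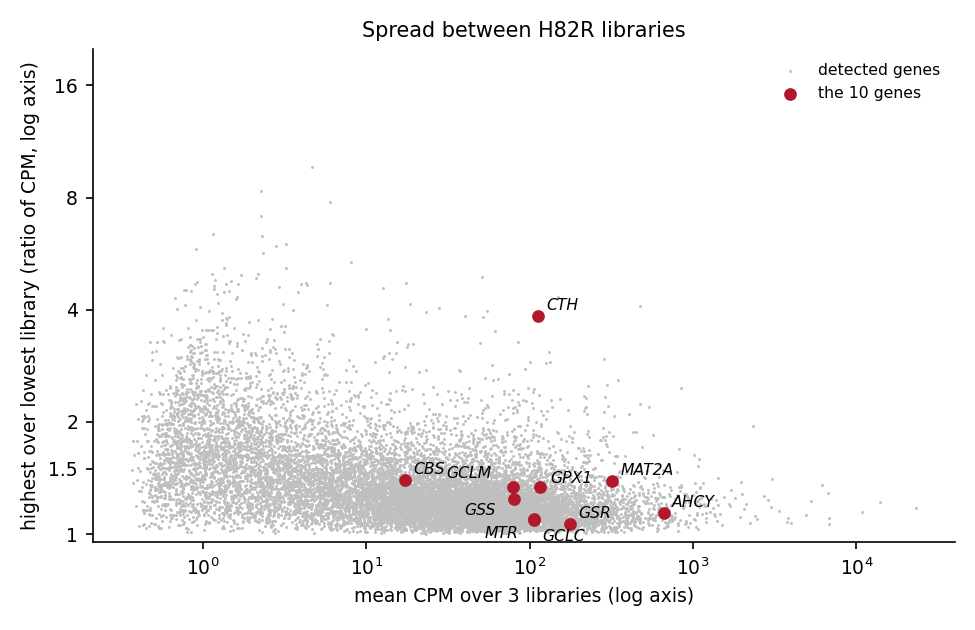
Mean CPM over the 3 libraries (log axis) against the ratio of the highest to the lowest library (log axis) for all 14612 detected genes (grey) and the 10 genes (red). CTH stood at a ratio of 3.85, and the other 9 genes lay between 1.06 and 1.40.

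The other 9 genes varied little beside CTH. GSR had the smallest ratio of highest to lowest library at 1.06, and CBS the largest of these 9 at 1.40, while the median over all detected genes was 1.25. All 10 genes varied between libraries by more than counting error in a chi-square test of homogeneity (adjusted over detected genes), as did 68.7% of detected genes, so that call does not set them apart. Without replicate 1, 9 of the 10 passed it, beside 52.8% of detected genes, and without replicate 2, 8 of the 10, beside 39% of detected genes. Without replicate 3, 6 of the 10 passed it, beside 51.1% of detected genes, and AHCY, GCLC, GSS and GSR did not.

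The upstream region of CTH is shown because CTH is the gene whose level differed most between libraries, and that of GCLM because it holds a match to the antioxidant response element, the motif bound by NRF2. Both come from RefSeq (GRCh38.p14), run 5′ to 3′ on the strand of the gene and end at the base before the RefSeq start. The GENCODE starts lie farther upstream, so that 50 bases of the CTH stretch and 26 of the GCLM stretch fall inside the gene as GENCODE gives it. CTH is at chr1:70411018-70411267 on the plus strand and GCLM at chr1:93909431-93909680 on the minus strand. Capitals mark the motif match.
CTH: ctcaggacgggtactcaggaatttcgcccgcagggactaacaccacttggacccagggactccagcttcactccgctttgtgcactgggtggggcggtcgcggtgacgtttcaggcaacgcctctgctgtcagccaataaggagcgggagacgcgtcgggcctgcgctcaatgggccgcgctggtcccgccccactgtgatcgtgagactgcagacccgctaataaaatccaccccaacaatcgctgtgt
GCLM: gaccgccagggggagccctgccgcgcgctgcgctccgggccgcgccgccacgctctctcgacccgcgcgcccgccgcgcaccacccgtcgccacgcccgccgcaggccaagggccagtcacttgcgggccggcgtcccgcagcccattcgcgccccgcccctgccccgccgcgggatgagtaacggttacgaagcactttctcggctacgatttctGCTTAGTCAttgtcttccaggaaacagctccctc

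The motifs searched on both strands of the 250 bases before each start were TGACNNNGC, the antioxidant response element, and TGATGNAA, a core of the element bound by ATF4 with CEBP proteins. The table held such regions for 8 of the 10 genes, 13 regions in all. TGACNNNGC was found for GCLM, starting 34 bases before the start on the opposite strand, and in 1 of the CBS regions, 83 bases before the start, and it occurred in 10.9% of 35116 regions of all genes. TGATGNAA was found in none of the 13 and in 3.14% of all regions. A match in these letters is a description and not a binding site, and the absence of one refers to this window only.

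CBS, cystathionine beta-synthase, which condenses homocysteine with serine and opens transsulfuration, had the lowest level of the set on both scales, CPM and CPM per kb of exon. It had 347, 835 and 442 counts, or 14.0, 19.5 and 18.4 CPM, all below the median gene. Its log2 distance was -0.55 ± 0.13 (SE, n = 3; limma adjusted p = 0.0032). Without replicate 1, its lowest library, the distance was -0.32 and CBS was no longer called below (adjusted p = 0.0567). Over the alternatives that left CBS below, the adjusted p ran from 6.73e-07 to 0.0567. With every gene of at least 1 count kept, CBS lay above the median gene, which was then lower, by 1.74 (adjusted p = 1.89e-10). CBS counts were 0.268, 0.0974 and 0.214 times those of CTH in replicates 1, 2 and 3. This level is uncertain, because GRCh38 carries a second annotated copy, CBSL, on the same chromosome.

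The 2 copies are almost the same in sequence. Over 1653 coding bases the longest coding transcripts of CBS and CBSL in GENCODE release 29 differed at 1 position, C699T, where the first letter is the base of CBS and positions are counted from 1 at the A of the start codon. The stretch of exon 8 around that position is shown because it holds the only coding position at which these transcripts differ. It lies at chr21:43065203-43065272 for CBS and at chr21:6456881-6456950 for CBSL, both on the minus strand of GRCh38, is written 5′ to 3′ in the direction of transcription, and has that position in capitals.
CBS: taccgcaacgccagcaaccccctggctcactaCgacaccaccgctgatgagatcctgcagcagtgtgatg
CBSL: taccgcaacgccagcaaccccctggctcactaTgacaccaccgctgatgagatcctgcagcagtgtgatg

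Of the 100-base stretches of the longest coding CBS transcript, 92.4% also occur in a CBSL transcript, and of those of CBSL 95.9% occur in CBS. CBSL had 668, 1437 and 715 counts, more than CBS in every library, at 26.9, 33.6 and 29.8 CPM. Since the counting of shared reads was not given, these counts do not show which copy the reads came from. The share of the combined counts that fell on CBS was 34.2% in replicate 1, with an exact (Clopper-Pearson) 95% interval of 31.3 to 37.2. It was 36.8% (34.8 to 38.8) in replicate 2 and 38.2% (35.4 to 41.1) in replicate 3, so the 3 intervals overlapped. Added together the 2 copies had 40.9, 53.2 and 48.3 CPM, a mean of 47.4 ± 6.19 (SD, n = 3). As 1 gene they lay above the median gene by 0.91 on the log2 scale (limma adjusted p = 2.56e-05), so the call of CBS changed direction, and all 10 genes were then called above. This sum was added after the values had been seen. With the sum, the mean ratio of CBS to CTH was 0.536, against 0.193 for CBS alone.

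**Figure D3:**
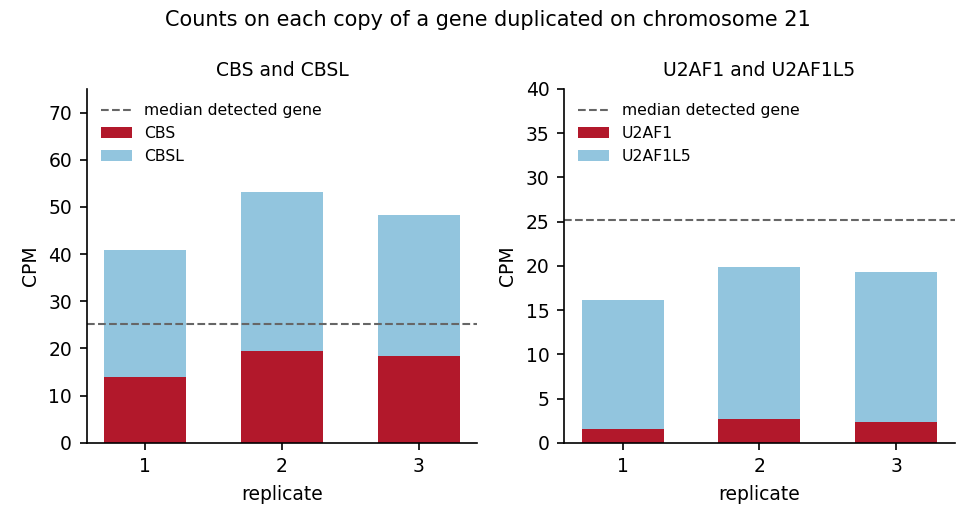
CPM of CBS and CBSL (left) and of U2AF1 and U2AF1L5 (right), stacked for replicates 1, 2 and 3, with the median detected gene (25.2 CPM) as a dashed line. CBS alone stayed under the line and the sum with CBSL (40.9 to 53.2 CPM) above it, and most of the combined counts of the U2AF1 pair lay on U2AF1L5.

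U2AF1, a splicing factor gene that also has an annotated second copy on chromosome 21, showed the same kind of split. It had 39, 113 and 55 counts, beside 362, 734 and 407 for U2AF1L5, which put 9.73%, 13.3% and 11.9% of the sum on U2AF1. Other genes of this kind had counts near or at 0. KCNE1 had 11, 23 and 9 counts and KCNE1B none, SIK1 1, 1 and 0, and CRYAA 0, 1 and 0. SMIM11A had none and SMIM11B 1, 2 and 3, while CRYAA2 and SIK1B had no row in the table. The 100-base stretches shared with the other copy were 71.9% for KCNE1, 86.8% for SIK1, 90.6% for CRYAA and 100% for SMIM11A. How shared reads were counted was not given, so these counts and the sums of CBS and U2AF1 with their copies may miss reads.

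The 3 genes of glutathione synthesis all lay above the median gene. GCLC, the catalytic subunit of glutamate-cysteine ligase, which performs the rate-limiting step, had 104, 104 and 113 CPM. GCLM, its modifier subunit, had 80.4, 67.5 and 90.6 CPM, with replicate 2 lowest. GSS, which adds glycine, had 82.8, 87.0 and 69.9 CPM, with replicate 3 lowest. Their log2 distances from the median gene were 2.09 ± 0.07, 1.65 ± 0.09 and 1.66 ± 0.08 (SE), with limma adjusted p = 2.75e-08, 3.98e-07 and 2.47e-07.

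The order of the ligase subunits depended on whether length was taken into account. By counts GCLC exceeded GCLM by 1.29, 1.53 and 1.25 times in replicates 1, 2 and 3. The exons of GCLC add up to 8646 bases and those of GCLM to 5420, and per kb of exon the ratio was 0.811, 0.962 and 0.781, so GCLM was then the higher in all 3 libraries. On the longest transcript the order turned again, with means of 28.0 CPM per kb for GCLC and 16.4 for GCLM. GSS counts were 0.795, 0.840 and 0.619 times those of GCLC, and per kb 1.11, 1.18 and 0.867 times, so that the order of these genes differed between libraries. With 3 libraries the two-sided exact sign-flip test cannot go below p = 0.25, the value it gave for GCLC to GCLM on both scales.

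The genes that keep glutathione reduced and use it were also above the median gene. GSR, the reductase that regenerates glutathione from its disulfide with NADPH, had 177, 170.2 and 181 CPM, the smallest ratio of highest to lowest library among the 10 genes. It lay 2.81 ± 0.06 above the median gene on the log2 scale (SE; limma adjusted p = 4.17e-09). GSR counts were 2.13, 1.96 and 2.59 times those of GSS. GPX1, the cytosolic selenoprotein that reduces peroxides with glutathione, had 132, 99.1 and 113 CPM, with replicate 1 highest. Its log2 distance was 2.18 ± 0.09 (SE; limma adjusted p = 7.91e-08). In GENCODE release 29 GPX1 is filed as a polymorphic pseudogene and not as protein-coding, and 7.32% of the 100-base stretches of its transcript occur in GPX1P1, a processed copy.

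Per kb of exon, GPX1 and GPX4 were the highest of the 8 glutathione peroxidase genes. GPX4, which reduces lipid peroxides, had 121, 114 and 105 CPM. GPX1 counts were 1.09, 0.867 and 1.08 times those of GPX4, so their order differed between libraries (two-sided exact sign-flip test, p = 1). Per kb of exon the ratio was 1.54, 1.22 and 1.52, with GPX1 higher in each. The exons of GPX1 add up to 1430 bases and those of GPX4 to 2019, but their longest transcripts have 1151 and 1184 bases. On the longest transcript their order again differed between libraries. GPX3 had 53.6, 38.6 and 40.1 CPM, GPX8 and GPX2 were low, at 2.36 ± 0.391 and 0.696 ± 0.150 CPM (SD, n = 3), GPX6 had 1, 1 and 0 counts, and GPX5 and GPX7 had none in any library. GPX3, GPX5, GPX6, GPX7 and GPX8 were named after their values were seen, to complete the family.

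Levels of different genes can be compared only per length, here as CPM per kb of all exon bases of the gene. On this scale the means were 169.9 ± 11.8 for AHCY, 80.4 ± 11.7 for GPX1, 71.4 ± 11.8 for MAT2A, 46.8 ± 1.47 for GSR, 46.8 ± 32.2 for CTH, 14.7 ± 2.14 for GCLM, 12.9 ± 1.44 for GSS, 12.4 ± 0.607 for GCLC, 9.38 ± 0.443 for MTR and 2.55 ± 0.435 for CBS (SD, n = 3). The median detected gene stood at 5.61. Ranges over the 3 libraries overlapped for the neighbours GPX1 and MAT2A, GSR and CTH, GCLM and GSS, and GSS and GCLC, and these did not differ beyond their spread. AHCY, MTR and CBS each stood apart from their neighbours. The range of CTH, from 21.6 to 83.1, also overlapped those of GPX1 and MAT2A.

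**Figure D4:**
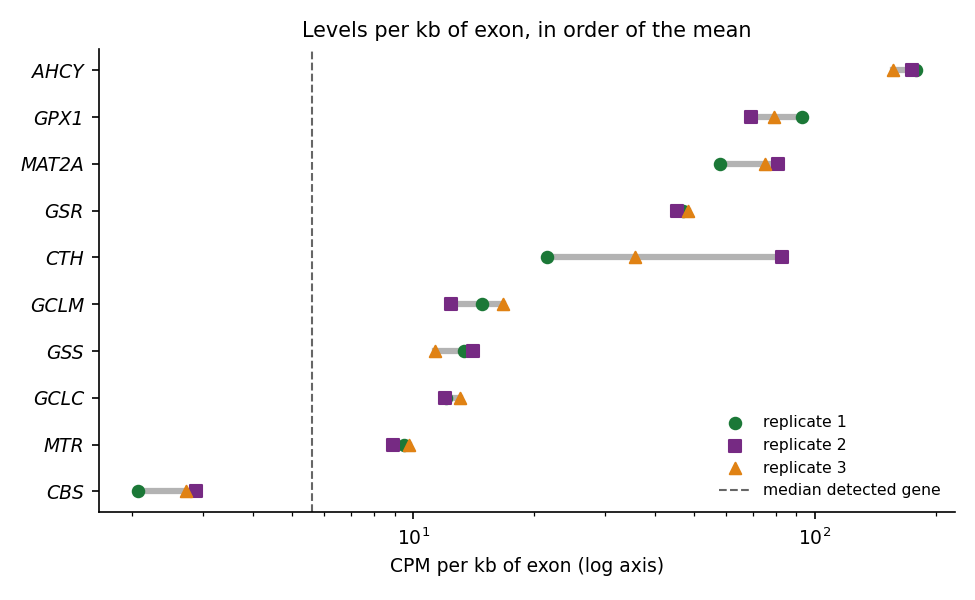
CPM per kb of exon (log axis) of the 10 genes, ordered by their mean, in replicates 1 (circles), 2 (squares) and 3 (triangles), with a grey bar from the lowest to the highest library. The dashed line marks the median detected gene at 5.61, AHCY stood highest, and the CTH bar runs from 21.6 to 83.1.

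The test against the median gene gave the same calls per kb, 9 above and CBS below, where 45.3% of 13216 genes of known exon length were called above and 44.9% below. The order itself depended on the length used. Measured on the longest transcript of each gene instead of all exon bases, 4 of the 10 genes kept their place, MAT2A came before GPX1, CTH before GSR, and GCLC before GSS and GCLM.

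Other genes of the pathway were taken from 9 lists with 97 genes, of which 85 were detected. The calls of each list stand beside 45.9% of all detected genes called above and 46.1% called below. Of 9 genes of cystine and methionine uptake, 6 were called above the median gene and 1 below, 1 was not distinguished and 1 was not detected. SLC38A2, a neutral amino acid transporter, had 406, 476 and 525 CPM, the methionine carrier SLC7A5 297, 557 and 490.2 CPM, and SLC1A5, a glutamine and neutral amino acid carrier, 214, 393 and 278 CPM. SLC43A2, the lowest detected, had 12.0, 7.77 and 12.1 CPM. Replicate 1 was lowest for 6 of 8 detected genes of this list (75%), beside 30.3% of all detected genes, and the highest library exceeded the lowest by at least 1.5 times in 7 of 8, beside 22.8%. This spread rested on replicate 1: without it 1 of 8 reached such a ratio, beside 14.3% of detected genes, while without replicate 2 it was 4 of 8, beside 9.31%, and without replicate 3 it was 6 of 8, beside 13.1%. SLC3A2, the shared heavy chain of SLC7A11 and SLC7A5, had 127, 231 and 182 CPM, and SLC1A4 29.8, 84.9 and 61.2 CPM, and both were named after their values were seen. Antisense genes cover 23.8% of the exon bases of SLC1A5 and 5.71% of those of SLC7A5.

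**Figure D5:**
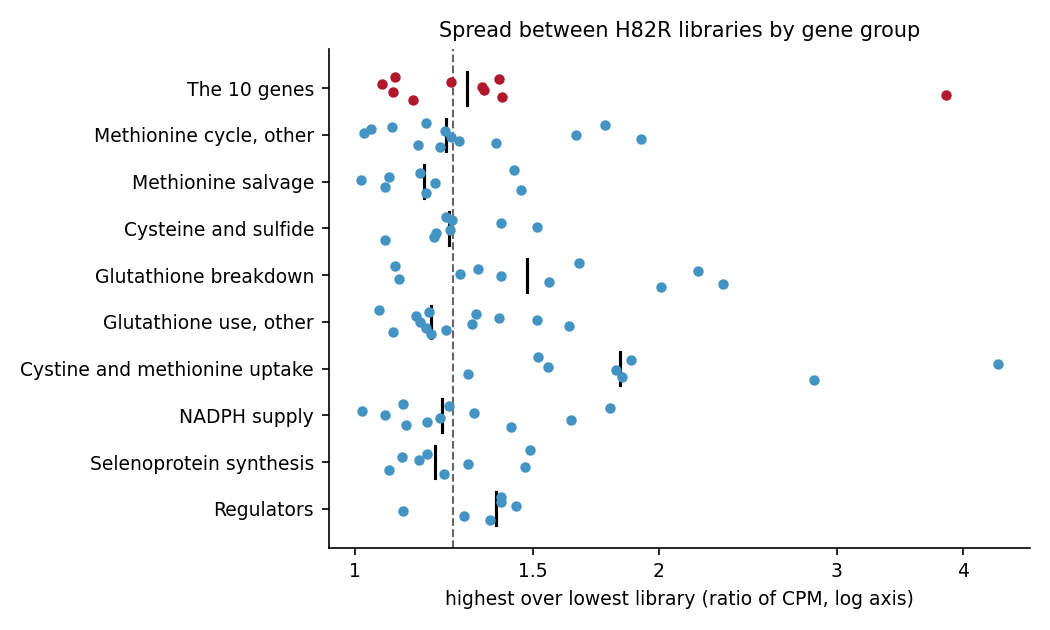
Ratio of the highest to the lowest library (log axis) for each detected gene, by gene group, with the median of each group as a black bar and the median of all detected genes (1.25) as a dashed line. CTH stands alone among the 10 genes at 3.85, and the uptake group has a median of 1.83.

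Of 13 glutathione breakdown genes, 4 were called above and 5 below (45.9% and 46.1% of all detected genes). In this list 1 gene was not distinguished and 3 were not detected. GGT7, a gamma-glutamyltransferase family member, had 52.7, 69.8 and 58.9 CPM and the peptidase gene LAP3 63.0, 57.5 and 59.3 CPM. CHAC1, which cleaves glutathione in the cytosol and is a known ATF4 target, had 21.1, 48.7 and 46.0 CPM. Replicate 1 was lowest for CHAC1, as for 30.3% of all detected genes. CHAC1 passed the test against the median gene only narrowly (limma adjusted p = 0.0475). ANPEP was the lowest detected at 0.604, 1.01 and 0.501 CPM. The highest library exceeded the lowest by at least 1.5 times in 5 of the 10 detected genes of this list, beside 22.8% of all detected genes. ANPEP was among these 5, but with 15, 43 and 12 counts it did not pass the chi-square test of homogeneity (adjusted p = 0.0615).

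Of 10 genes of cysteine, hydrogen sulfide and taurine metabolism, 2 were called above, 6 below and 2 were not detected, with a median log2 distance of -1.33. Over all detected genes 45.9% were called above and 46.1% below. GOT1 (65.3, 81.2 and 67.9 CPM) and MPST, which forms sulfide from mercaptopyruvate (67.7, 79.7 and 57.2 CPM), had the highest CPM, followed by KYAT1 (14.1, 16.9 and 11.1 CPM). ETHE1, the mitochondrial persulfide dioxygenase, was the lowest detected at 2.86, 2.81 and 2.38 CPM. In the table KYAT1 carries its older name CCBL1.

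Of 15 further methionine cycle genes, 8 were called above and 3 below (45.9% and 46.1% of all detected genes). Another 2 were not distinguished and 2 were not detected. METTL16, a methyltransferase that controls MAT2A splicing, had 107, 87.3 and 105 CPM, and MMADHC, which directs cobalamin within the cell, 93.6, 90.1 and 98.1 CPM. GNMT, a liver methyltransferase that consumes S-adenosylmethionine, was the lowest detected at 0.966, 1.52 and 0.793 CPM. Of 8 methionine salvage genes, 6 were called above and 1 below, and 1 was not distinguished. The aminopropyltransferase genes SMS (204, 176 and 202 CPM) and SRM (186, 129 and 183 CPM), whose products release methylthioadenosine, had the highest CPM, with ENOPH1 at 90.0, 79.9 and 95.9 CPM and APIP lowest at 18.3, 19.1 and 17.8 CPM.

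Among 16 other genes of glutathione use, 8 were called above and 5 below (45.9% and 46.1% of all detected genes), and 3 were not detected. The glyoxalase gene GLO1 (331, 269 and 320.1 CPM), PRDX6 (194, 201 and 190.2 CPM) and ESD (121, 115 and 111 CPM) had the highest CPM, and GPX2 was the lowest detected. NADPH, which GSR needs, is made by enzymes of which 8 of 12 were called above and 3 below, and 1 was not detected. PGD had 312, 291 and 280.1 CPM, MTHFD1 258, 257 and 254 CPM, and MTHFD2 194, 347 and 274 CPM with replicate 1 lowest, while ALDH1L2 was lowest at 0.765, 0.702 and 1.0 CPM. Antisense genes cover 33.2% of the exon bases of MTHFD2, 25.6% of those of MMADHC and 19.3% of those of GOT1. For ETHE1 the share is 14.8% and for MTHFD1 11%. Selenoprotein synthesis genes, which GPX1 and GPX4 depend on, split into 4 above and 4 below, from SECISBP2 (97.7, 117 and 90.7 CPM), SEPHS2 (87.2, 80.8 and 89.9 CPM) and SEPHS1 (63.8, 61.1 and 70.7 CPM) to PSTK (8.90, 8.24 and 8.72 CPM).

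Of 6 regulators of these pathways, 5 were called above (45.9% of all detected genes) and 1 was not distinguished. ATF4, a transcription factor of the amino acid response, had 483, 658 and 562 CPM, with replicate 2 highest. BACH1, a repressor of antioxidant genes, had 109, 85.2 and 109 CPM, and NFE2L2, which encodes NRF2, had 78.4, 101 and 110 CPM. In the annotation 17.6% of the exon bases of NFE2L2 also lie in another gene on the same strand, and 4.08% in antisense genes.

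The libraries carried the markers of their label. All 8 neuroendocrine markers reached the detection threshold, and 6 were called above and 2 below (45.9% and 46.1% of all detected genes). Their summed levels were 1330, 1340 and 1340 CPM in replicates 1, 2 and 3. None of 6 hepatocyte markers was detected, with sums of 0.322, 0.468 and 0.25 CPM and ALB and SERPINA1 at 0. Normal lung epithelium markers summed to 15.7, 10.5 and 14.9 CPM, most of it FOXJ1 at 14.2, 8.64 and 13.4 CPM, with AGER also detected and SFTPC, SCGB1A1 and KRT5 at 0. Fibroblast markers summed to 5.51, 4.16 and 3.25 CPM, most of it PDGFRB, and endothelial markers to 1.09, 1.57 and 1.79 CPM, with 2 markers of each detected. Blood cell markers summed to 31.1, 35.4 and 26.9 CPM, most of it CD68 at 24.9, 24.6 and 18.3 CPM. CD3E, a T cell marker, had 5.48, 9.92 and 7.47 CPM. PTPRC, found on most blood cells, was not detected, with 6, 10 and 7 counts or 0.2415, 0.234 and 0.2921 CPM. The part of these markers in the spread of CTH was not tested.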

How the data were processed

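Per the labels' protocols, TRIzol was used for the RNA and Illumina for the sequencing. The authors deposited raw read counts per gene symbol, 1 column per library and not normalized. The submitters' processing notes list STAR 2.6.1b and hg38; the strand setting, annotation and counter were not given in the sources used here. Of 27587 names, 13 had been turned into dates (0.0665%, 0.0707% and 0.0736% of the counts per library), and these rows stayed out of totals and tests.

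CPM used TMM factors from edgeR 4.0.16. Levels were tested with limma 3.58.1 (limma-trend, prior count 2) in R 4.3.3. The tests of level and of homogeneity, but not the others, were tested on simulated data. The labels form 1 group, so there was no contrast for edgeR's quasi-likelihood test; as an alternative it tested the intercept. Exon lengths came from GENCODE release 29 on GRCh38 (90.4% of detected genes). Intervals and floors (3 counts) cover counting error only, since no molecular identifiers separate PCR copies.

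The genes and lists were chosen with earlier results of these data known. Named are all 10 genes, pair members, genes copied on chromosome 21, and the 3 highest and the lowest detected gene of each list; others are marked, and 1 gene that this rule names is not reported here. Alternatives were leaving out each library, 2 filters on low counts, size factors from DESeq2 1.42.0, a prior count of 0.5, unscaled totals, edgeR's test, limma-voom, the upper quartile, CPM per kb, protein-coding genes only, a threshold of 0.01 and, added later, CBS and CBSL summed. For pairs and order, summed counts and the longest transcript were used.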

Additional observations from a re-analysis of the deposited data

How the results depend on the processing

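Each level was retested under 14 alternatives. The number of genes above the median gene was 9 or 10, and 8 among protein-coding genes only, where GPX1 was not tested. Against the upper quartile 8 of the 10 were called above, beside 21.5% of all detected genes. CBS was the unstable call: the number of genes below was 1 and became 0 with every gene of at least 1 count kept, where CBS lay at 1.74 because the median gene was then lower, and 0 with CBS and CBSL summed, where it lay at 0.91; over the leave-one-out fits the number ran from 0 (without replicate 1) to 1. The number of genes spread beyond counting error ran from 6 to 9 when 1 library was left out, beside 39% to 52.8% of all detected genes. Of the 85 wider pathway genes tested, 51 (60%) were called above and 28 (32.9%) below, beside 45.9% and 46.1% of all detected genes; against the upper quartile the numbers were 31 (36.5%) and 45 (52.9%), beside 21.5% and 71.4%. Per kb of exon, GCLC to GCLM turned to 0.852 and GSS to GCLC to 1.05, while CBS to CTH moved to 0.0687, CBS to CBSL to 0.338, MTR to MTRR to 1.75, AHCY to AHCYL1 to 2.02, GSR to GSS to 3.66 and GPX1 to GPX4 to 1.43. The exons of CBS add up to 6786 bases and those of CBSL to 4004, but the longest transcript of each has 2656 bases. The ratio of CBS to CBSL per kb therefore depends on the length used. CBS to CTH was 0.536 with CBS and CBSL summed. GPX1 to GPX4, 1.01 on average, was 0.983 on summed counts and from 0.972 to 1.09 with 1 library left out. In the order per kb, 4 genes kept their place with the longest transcript and 6 to 8 with 1 library left out. No paired analysis was possible because the labels form 1 group. With 3 libraries no spread between cultures could be separated from technical spread.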
